A study of Mus musculus with 14 samples.

Results

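The nuclear-encoded subunits of oxidative phosphorylation were taken by gene symbol alone, and the rule used no measured value. Earlier results of these data were known when it was chosen. Symbols that began with Nduf and a, b, c, s or v followed by a digit were assigned to complex I, Sdha to Sdhd to complex II, symbols that began with Uqcr to complex III, those that began with Cox and a digit from 4 to 8 to complex IV, and those that began with Atp5 to complex V. The rule found 84 of the 23282 genes of the count table, 37 in complex I, 4 in complex II, 8 in complex III, 18 in complex IV and 17 in complex V. It follows the symbols and not current structural knowledge, so a subunit under any other symbol was left out. Ndufa4, listed under complex I by its name, is now regarded as a subunit of complex IV. Cox7a2l is a factor that links complexes into supercomplexes, and Atp5s and Atp5sl are not structural subunits of the ATP synthase.

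Oxidative phosphorylation runs in the inner mitochondrial membrane. Complex I takes electrons from NADH and complex II takes them from succinate, both pass them to ubiquinone, complex III passes them on to cytochrome c, and complex IV hands them to oxygen. Complexes I, III and IV pump protons across the membrane, and complex V, the ATP synthase, uses the returning protons to make ATP. Most subunits are encoded in the nucleus, and a small core of complexes I, III, IV and V is encoded in the mitochondrial genome and was not analysed here. In white adipocytes, respiration supplies the ATP and intermediates for storing and releasing lipid, whereas brown adipocytes carry many more mitochondria and can spend the proton gradient as heat.

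The data were QuantSeq 3′ mRNA sequencing counts from total RNA of epididymal white adipose tissue (eWAT) of 14 wild type male C57BL/6J mice. The mice entered the study at 4 weeks of age and received a standard diet (control) or a Western diet rich in fat and cholesterol (WD) for 20 weeks. The labels give 4 control and 5 WD libraries in batch 1 (control replicates 1 to 4, WD replicates 1 to 5) and 5 control libraries in batch 2 (control replicates 5 to 9), without saying what a batch was. No WD library belongs to batch 2, so diet and batch cannot be told apart when the WD group is set against the batch 2 controls. Because QuantSeq yields reads near the 3′ end of a transcript, a count does not grow with gene length, and levels of different genes are compared here in CPM (counts scaled to the library's total with TMM factors). The tissue is bulk, and fewer cells of a type and less RNA per cell cannot be told apart in it.

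Total counts were 10278970 to 13712254 per library. All 10 adipocyte markers had counts in every library, and summed to 6656 to 55451 CPM for batch 1 controls, 27987 to 40856 CPM for WD and 69491 to 82168 CPM for batch 2 controls. Control replicate 1 held the lowest adipocyte sum, and 11 epididymis markers took 13.1% of its counts, against at most 0.00536% in any other library. The 10 macrophage markers summed to 367 to 1856, 1877 to 3146 and 427 to 822 CPM in the same order of groups, and the 6 brown or beige adipocyte markers to 12.1 to 30.4, 9.02 to 26.5 and 14.03 to 24.2 CPM. Control replicate 4 had counts for 7999 genes, against 10903 to 13780 in the other libraries. The total share, the number of calls and the medians by complex that rest on the batch 1 controls are therefore also given without control replicate 1, as are single values of the genes on which the diet comparison turns.

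Many nuclear genes of respiration carry short promoter elements bound by NRF-1, by ETS factors such as GABPA, or by YY1. RefSeq promoter windows (GRCm38.p6, 250 bases before to 50 after a transcription start) were at hand for 69 of the 84 genes, and were searched on both strands for the letters GCGCANGCG (NRF-1), CCGGAAG (ETS) and AAGATGGC (YY1). The NRF-1 letters occurred for 20 of the 69 genes (28.99%) and for 7.03% of all 27025 genes with a window, and GCGCANGCG can overlap its own reverse complement. The ETS letters occurred for 16 genes (23.2%, against 9.93% of all genes) and the YY1 letters for 11 genes (15.9%, against 3.19%). At least 1 of the 3 was found for 39 of the 69 genes (56.5%) and for 17.8% of all genes. By complex these were 18 of 32 genes in complex I, 3 of 3 in complex II, 3 of 5 in complex III, 3 of 13 in complex IV and 12 of 16 in complex V.

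The stretches below, 180 bases before to 10 after the start, belong to 3 genes called lower in the WD group than in batch 2 controls (Sdha, Atp5c1 and Cox8a), to the abundant Cox6a1 with all of its WD libraries below the batch 2 controls, and to Cox8b, the member with the lowest p between diets in batch 1. They are written 5′ to 3′ on the gene's strand, which is the minus strand for all 5, with matched letters in capitals. Their positions in GRCm38.p6 are chr13:74350231-74350420, chr2:10080423-10080612, chr19:7217607-7217796, chr5:115348949-115349138 and chr7:140900437-140900626 in the order printed.
Sdha: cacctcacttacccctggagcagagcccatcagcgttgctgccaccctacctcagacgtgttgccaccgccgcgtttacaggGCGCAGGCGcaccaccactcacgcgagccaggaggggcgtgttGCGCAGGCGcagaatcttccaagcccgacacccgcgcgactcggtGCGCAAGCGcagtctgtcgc
Atp5c1: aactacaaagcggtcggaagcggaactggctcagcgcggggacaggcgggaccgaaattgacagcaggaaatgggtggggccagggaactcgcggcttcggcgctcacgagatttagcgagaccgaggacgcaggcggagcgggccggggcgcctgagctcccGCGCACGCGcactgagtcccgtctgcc
Cox8a: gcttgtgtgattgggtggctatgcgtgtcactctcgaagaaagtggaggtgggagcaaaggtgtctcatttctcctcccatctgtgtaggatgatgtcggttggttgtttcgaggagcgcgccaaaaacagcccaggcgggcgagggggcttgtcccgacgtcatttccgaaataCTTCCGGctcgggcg
Cox6a1: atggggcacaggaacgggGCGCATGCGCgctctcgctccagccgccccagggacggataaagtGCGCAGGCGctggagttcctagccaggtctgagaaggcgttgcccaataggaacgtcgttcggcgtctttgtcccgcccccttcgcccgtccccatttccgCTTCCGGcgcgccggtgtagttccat
Cox8b: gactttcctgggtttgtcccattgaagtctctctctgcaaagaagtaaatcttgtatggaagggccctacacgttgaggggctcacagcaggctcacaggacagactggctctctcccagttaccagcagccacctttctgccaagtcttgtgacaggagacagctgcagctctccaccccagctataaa
Sdha held 3 NRF-1 matches, the first bases of which lay 98, 55 and 10 bases before the start. Atp5c1 held 1 NRF-1 match 17 bases before the start of 1 of its 2 windows, and Cox8a held 1 ETS match that begins 5 bases before the start. Cox6a1 held NRF-1 matches 162 and 117 bases before the start, the first of them also read on the other strand, and an ETS match 16 bases before it. None of the 3 sets of letters was in the Cox8b stretch. A match of letters is a description of the sequence and does not show binding.

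The subunit genes were among the well expressed genes of eWAT. Of the 84 genes, 82 passed edgeR's filter on low counts over the 14 libraries, and their median level was 155.9 CPM, against 15.2 CPM for the 13159 genes that passed. Of the 82, 74 lay above that median of all genes and 71 above 50 CPM. The levels ran from 1.48 CPM for Cox4i2 to 574 CPM for Cox6c. The 2 genes below the filter were Cox8c and Cox7b2, isoforms known from the testis. Cox7b2 had 8 counts, all of them in control replicate 1, and Cox8c had 31, 97 and 59 counts in control replicates 1, 2 and 3 and 0 in the other 11 libraries.

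Together the 84 genes took 1.05, 1.27, 1.44 and 1.28% of the counts of the 4 batch 1 controls (1.26% ± 0.158, SD, n = 4). In the WD group they took 1.33, 1.37, 1.22, 1.19 and 1.31% (1.28% ± 0.0778, SD, n = 5), and in the batch 2 controls 1.78, 1.63, 1.88, 1.58 and 1.86% (1.75% ± 0.136, SD, n = 5). By share, the WD libraries lay within the range of the batch 1 controls, and every batch 2 control lay above every library of batch 1. In summed CPM, which uses the TMM factors, WD replicate 2 had 16203 CPM, above control replicates 6 (16177 CPM) and 8 (15307 CPM). The other libraries of batch 1 had at most 13431 CPM. The 95% Wilson interval of such a share was at most 0.0163 percentage points wide, and it covers counting error only, since reads copied by PCR are not independent molecules. Without control replicate 1, the batch 1 controls took 1.27% to 1.44%, and the batch 2 controls stayed above them. WD replicates 3 (1.22%) and 4 (1.19%) then lay below that range, and WD replicates 1, 2 and 5 within it.

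In each of the 5 complexes the batch 2 controls had the highest mean share. Complex I genes took 0.368% to 0.524% of the counts of batch 1 controls, 0.434% to 0.523% of those of WD libraries and 0.564% to 0.703% of those of batch 2 controls. Complex II, the smallest, took 0.0394% to 0.0632%, 0.0470% to 0.0598% and 0.0776% to 0.0873%. Complex III took 0.135% to 0.173%, 0.136% to 0.198% and 0.192% to 0.239%. By share it was the only complex in which a WD library, replicate 2, reached into the range of the batch 2 controls. Complex IV took 0.262% to 0.309%, 0.237% to 0.295% and 0.334% to 0.402%. Complex V took 0.200% to 0.372%, 0.298% to 0.344% and 0.410% to 0.478%, and its lowest share in the batch 1 controls belonged to control replicate 1. In each of the 5, the shares of the batch 2 controls did not overlap those of the batch 1 controls. In summed CPM, WD replicate 2 also reached the batch 2 range for complex I (6191 against 5463 to 7508) and complex IV (3465 against 3239 to 4203). Control replicate 1, with 3952 CPM of complex IV, lay inside that range as well.

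**Figure D1:**
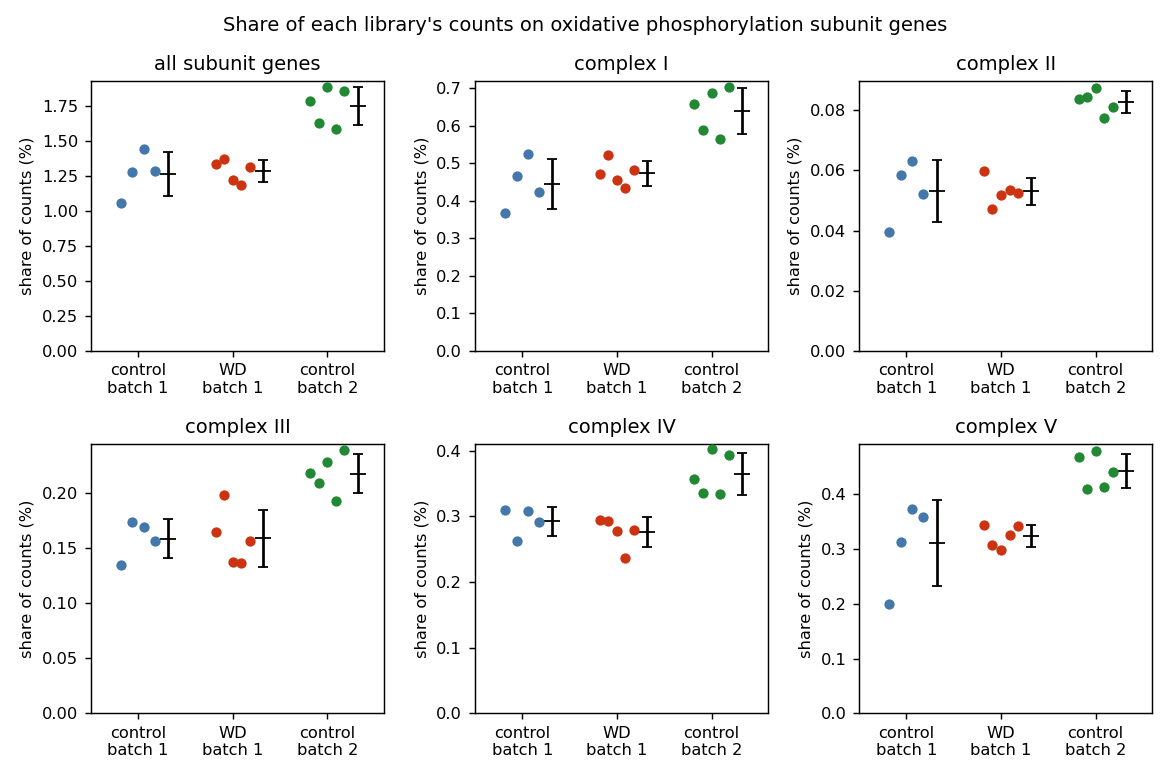
Share of each library's counts, in percent, on all 84 subunit genes and on those of each complex. Points are libraries (4 control and 5 WD libraries of batch 1, 5 control libraries of batch 2), and the bars beside them give the mean and SD. All batch 2 controls lie at 1.58% or above for the whole set, and all libraries of batch 1 at 1.44% or below.

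The 2 diets were first compared within batch 1. No subunit gene was called, 0 of 82 by edgeR's quasi-likelihood test at an FDR under 0.05, where the whole table also held 0 calls among 12157 genes (0%). DESeq2 called 0 subunit genes and 114 genes in all, and limma-voom called 0 and 0. At an unadjusted p under 0.05, 1 subunit gene was higher in the WD group (Cox8b, against 3.35% of all genes) and 2 were lower (Cox7c and Uqcrc2, against 1.82%). The WD and control libraries did not overlap for 3 genes higher in the WD group (Cox8b, Cox5b and Ndufa4l2, 2.95% of all genes) and for 1 lower gene (Uqcrc2, 0.880%). The median log2 fold change of the 82 genes was 0.076, against 0.031 for all genes, with 49 above and 33 below 0. With DESeq2's size factors in place of TMM it was -0.011, against -0.057 for all genes. Under limma-voom it was 0.12, against 0.42 for all genes. By complex the medians were 0.12 for I, -0.16 for II, 0.14 for III, 0.10 for IV and 0.051 for V. Without control replicate 1 they were 0.13, -0.29, 0.19, 0.12 and 0.042, with 0 genes called. In that fit the median of the 82 genes was 0.096, against 0.13 for all genes. Without WD replicate 2 the median of the 82 genes was -0.061, against 0.005 for all genes.

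Against the batch 2 controls, 10 of the 82 genes were called, 9 lower and 1 higher in the WD group. The 9 lower genes were 3 of complex I (Ndufs1 and Ndufb8 among them), 1 of complex II (Sdha), 2 of complex III (Uqcrc2 and Uqcrfs1), 1 of complex IV (Cox8a) and 2 of complex V (Atp5b and Atp5c1). They were 9 of the 82 tested, against 2.48% of all 12070 genes, whereas the 1 higher gene, Cox6a2, stands against 3.93%. All WD libraries lay below all batch 2 controls for 17 genes (20.7%, against 4.01% of all genes) and above them for 1 gene (4.88% of all genes). The median log2 fold change was -0.42, against -0.003 for all genes, and 73 of the 82 values were below 0. By complex the medians were -0.46, -0.82, -0.38, -0.35 and -0.35 from I to V. The number called ran from 5 without control replicate 7 to 20 without WD replicate 2, and it was 15 by DESeq2 and 10 by limma-voom. Among all genes, 565, 977, 1144 and 834 were called in the same order, against 773 in the main fit.

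The control groups of the 2 batches, which received the same diet, were then compared with each other. edgeR called 0 of 81 subunit genes and 0 of 12106 genes (0%), DESeq2 called 2 subunit genes (Cox5b and Atp5o) and 111 genes in all, and limma-voom called 0. At an unadjusted p under 0.05, 25 subunit genes were higher in batch 2 and 0 were lower, against 3.85% and 3.54% of all genes. The 2 batches did not overlap for 18 genes higher in batch 2 (22.2%, against 4.21% of all genes) and for 0 lower genes (1.22%). The median log2 difference was 0.50, against -0.002 for all genes, and 70 of the 81 values were above 0. It was 0.49 without control replicate 1, against 0.10 for all genes, and under limma-voom it was 0.57 where all genes had a median of 0.51. By complex the medians were 0.53, 0.64, 0.49, 0.25 and 0.29 from I to V. Without control replicate 1 they were 0.58, 0.51, 0.57, 0.49 and 0.41, with the largest change in complex IV. This comparison and the one of WD with batch 2 share the 5 batch 2 controls.

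With all 9 controls in 1 group, 0 of 82 subunit genes were called by edgeR, against 67 of 12653 genes (0.530%). DESeq2 called Uqcrc2 and Uqcrfs1 among 236 genes in all, and limma-voom called Uqcrc2 and Cox6a2 among 223. At an unadjusted p under 0.05, 2 subunit genes were higher in the WD group (Cox6a2 and Cox8b, against 4.48% of all genes) and 6 were lower (Atp5c1, Cox7c, Ndufa6, Sdha, Uqcrc2 and Uqcrfs1, against 3.25%). The median log2 fold change was -0.24 over the pooled controls, 0.076 within batch 1, and 0.063 when the batch was a term of the fit. Without control replicate 1, Uqcrc2 and Uqcrfs1 were called, among 190 genes in all.

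**Figure D2:**
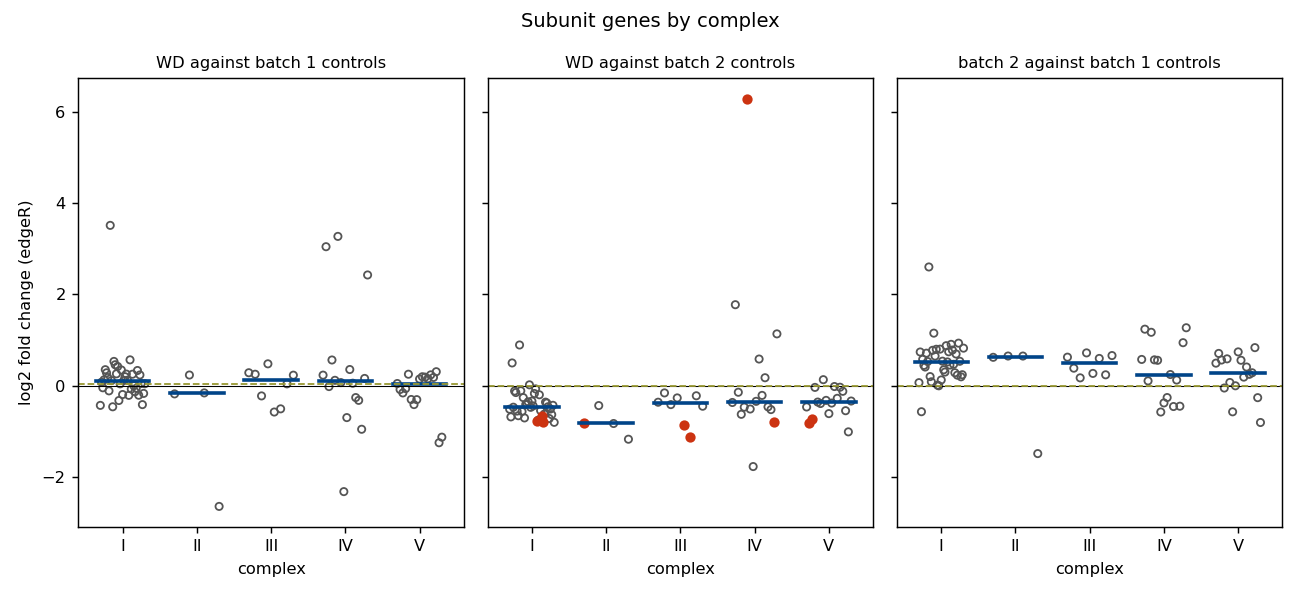
Log2 fold change of each tested subunit gene, from edgeR, grouped by complex for 3 comparisons. Filled red points have an FDR under 0.05, blue bars are the median of a complex, and the dashed line is the median of all genes tested. The points centre near 0 for WD against the batch 1 controls, below 0 against the batch 2 controls, and above 0 for batch 2 against batch 1 controls.

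Per library, the subunit genes of the batch 2 controls sat above their own mean over the 14 libraries. The median deviation of the 82 genes was 0.16 to 0.49 on the log2 scale in the 5 batch 2 controls, with 55 to 74 genes above their mean, and that of all genes was 0.084 to 0.17 in the same libraries. In control replicate 8 the medians were 0.159 for the subunit genes and 0.166 for all genes. It was -0.37 to -0.067 for batch 1 controls and -0.27 to 0.12 for WD, where WD replicate 2 was the only library of batch 1 above 0. In WD replicate 2 the interquartile range of the genes ran from -0.33 to 0.73, the widest of the 14. Control replicate 4 had the lowest median for these genes, -0.37, and for all genes it was lower still, -0.70.

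**Figure D3:**
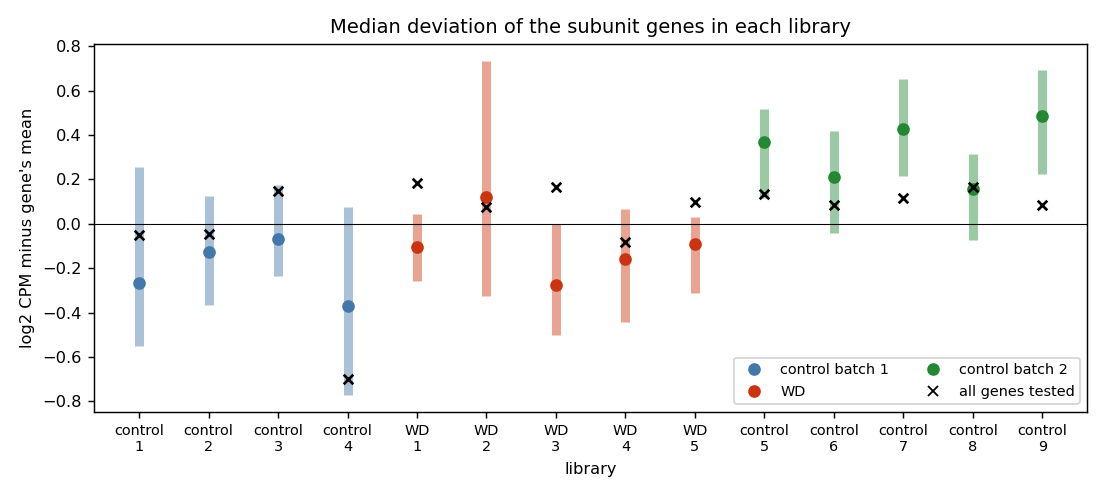
Median deviation of 82 subunit genes from their own mean over 14 libraries, in log2 CPM with 1 added, by library. Points are medians, thick bars the interquartile range of the genes and crosses the median of all genes. The batch 2 controls lie at 0.16 or above, and the spread is widest in WD replicate 2.

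Complex I holds an arm of flavin and iron-sulfur proteins that carries electrons, and a membrane arm with many accessory subunits. Of its 37 genes, 34 were lower in the WD group than in the batch 2 controls by sign, 3 of them called and 8 without overlap, and 36 were higher in batch 2 than in batch 1 controls. The 2 most abundant, the accessory subunits Ndufa2 (506 CPM over the 14 libraries) and Ndufa5 (280.3 CPM), were not among the 3. Ndufa2 had 362, 927, 373, 405 and 498 CPM in the WD group and 456 to 718 CPM in the batch 2 controls, so WD replicate 2 exceeded all of them.

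Ndufs1, the largest subunit and a holder of iron-sulfur clusters, had 71.5, 70.4, 95.1 and 43.02 CPM in the batch 1 controls, 82.6, 82.3, 67.5, 90.9 and 94.5 CPM in the WD group and 139, 158, 134, 105 and 129 CPM in the batch 2 controls. Every batch 2 control lay above every library of batch 1. The log2 fold change of WD against batch 2 was -0.67 (SE 0.19, adjusted p = 0.0406 by edgeR), and within batch 1 it was 0.25 (SE 0.31).

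Ndufb8, an accessory subunit of the membrane arm whose protein is often used as a marker of assembled complex I, had 219, 296, 157, 236 and 175 CPM in the WD group and 458, 305, 399, 297 and 393 CPM in the batch 2 controls. The highest WD library and the lowest batch 2 control nearly met. The log2 fold change was -0.77 (SE 0.21, adjusted p = 0.0330). Both calls were lost in some alternatives, and of 17 alternatives Ndufb8 was called in 11 and Ndufs1 in 9.

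The catalytic subunits Ndufs7, Ndufs8, Ndufv1 and Ndufv2 were not called. Ndufs7, which holds the last iron-sulfur cluster before ubiquinone, had 41.2 to 127 CPM in the WD group and 94.5 to 143 CPM in the batch 2 controls, with a log2 fold change of -0.71 (95% interval -1.23 to -0.20). Ndufv1, the subunit that binds NADH and flavin, had 75.8 to 206 and 153 to 263 CPM (-0.63, interval -1.14 to -0.12), and its partner Ndufv2 had 105 to 153 and 158 to 207 CPM (-0.43, interval -0.79 to -0.06). Ndufs8, another iron-sulfur protein, had 29.2, 65.1, 46.4 and 0 CPM in the batch 1 controls. Its value of 0 came from control replicate 4, which also had 0 counts of the accessory gene Ndufa8, a gene at 25.6 to 96.7 CPM in control replicates 1, 2 and 3. Neither gene was at 0 in any other library. The log2 fold change of Ndufs8 within batch 1 had a 95% interval of -1.92 to 2.03, so that a difference of several-fold in either direction was not detectable.

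Between the diets in batch 1, the lowest p values of complex I belonged to the accessory subunits Ndufa7 and Ndufc1. Ndufa7 had 92.4 to 145 CPM in the controls and 128 to 236 CPM in the WD group (0.54, SE 0.28, unadjusted p = 0.0817 by edgeR). Ndufc1 had 118 to 194 and 153 to 376 CPM (0.57, SE 0.32, unadjusted p = 0.102). Both ranges overlapped between the diets.

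Complex II is succinate dehydrogenase, which also belongs to the tricarboxylic acid (TCA) cycle, and all of its 4 subunits are nuclear. Sdha, the flavoprotein that oxidises succinate, had 237, 257, 266 and 166 CPM in the batch 1 controls, 211, 232, 179, 193 and 208 CPM in the WD group and 359.9, 351, 383, 321 and 389 CPM in the batch 2 controls. The batch 2 controls lay above all libraries of batch 1, and the 2 diets overlapped within batch 1. Against batch 2 the mean of the WD group was 0.567 of the control mean (log2 -0.82, SE 0.16, adjusted p = 0.00432 by edgeR), the lowest adjusted p of the 84 genes, and the call held in 17 of 17 alternatives. Within batch 1 the log2 fold change was -0.18 (95% interval -0.68 to 0.33), and -0.15 without control replicate 1. Sdha spans chr13:74322255-74350240 (mm10, minus strand).

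Sdhb, the iron-sulfur subunit, had 228, 259.8, 234 and 187 CPM in the batch 1 controls, 289, 307, 199, 315 and 226 CPM in the WD group and 348, 366, 349.7, 319 and 419.8 CPM in the batch 2 controls. All WD libraries lay below all batch 2 controls, although the test did not pass (log2 -0.43, SE 0.18, adjusted p = 0.208). The membrane anchors were lower in level. Sdhc had 21.98 to 93.4, 16.9 to 97.4 and 54.3 to 122 CPM in the 3 groups. Sdhd, the other anchor, had only 16.99, 3.82, 5.16 and 38.4 CPM in the batch 1 controls, 3.90, 0, 1.39, 2.33 and 5.10 CPM in the WD group and 3.91 to 9.30 CPM in the batch 2 controls, far below the other 3 subunits of the same complex. Control replicates 4 and 1 held its highest values, and the log2 fold change between diets in batch 1 was -2.64 (SE 1.31, unadjusted p = 0.0654, adjusted p = 1).

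Complex III, the cytochrome bc1 complex, showed the same sign for all of its 8 genes against batch 2, and 2 of them were called. Uqcrc2, a core protein of the matrix side, had 248.8, 309.5, 329 and 291 CPM in the batch 1 controls, 216, 147, 185, 218 and 220.1 CPM in the WD group and 349.8, 404, 379, 305 and 353 CPM in the batch 2 controls. All 5 WD libraries lay below all 9 controls, which held for no other member (1 of 82, against 0.253% of all genes). The log2 fold change was -0.86 against batch 2 (SE 0.17, adjusted p = 0.00561 by edgeR). Within batch 1 it was -0.57 (SE 0.25, unadjusted p = 0.0402, adjusted p = 0.932), and -0.63 without control replicate 1 (adjusted p = 0.663). Between the 2 control groups it was 0.27 (95% interval -0.14 to 0.68). Uqcrc2 spans chr7:120635189-120659523 on the plus strand, and its span overlaps by 228 bases that of Pdzd9 on the other strand, a gene with 0 to 667 counts per library where Uqcrc2 had 1385 to 4988.

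Uqcrfs1, the Rieske iron-sulfur protein through which electrons leave ubiquinol, had 58.4, 101, 96.7 and 71.9 CPM, 46.5, 46.5, 81.1, 53.7 and 59.5 CPM and 105, 159, 152, 103 and 107 CPM in the same order. The WD group lay below the batch 2 controls without overlap and overlapped the batch 1 controls. It fell by 1.12 on the log2 scale against batch 2 (SE 0.22, adjusted p = 0.00479), the largest drop among the called genes, to 0.459 of the control mean. Within batch 1 the value was -0.50 (95% interval -1.12 to 0.12), and -0.62 without control replicate 1. The calls of Uqcrc2 and Uqcrfs1 against batch 2 held in 17 of 17 alternatives.

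The most abundant complex III genes were Uqcrh, the hinge protein beside cytochrome c1, at 415 CPM over the 14 libraries, and Uqcrq at 310.0 CPM. Uqcrh had 657, 323, 288 and 264 CPM in the batch 1 controls and 378, 682, 269, 320.1 and 329 CPM in the WD group. Control replicate 1 and WD replicate 2 each stood apart in their group, and the log2 fold change between the diets was 0.044 (95% interval -0.71 to 0.80).

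Complex IV, cytochrome c oxidase, keeps its catalytic core in the mitochondrial genome, and its nuclear subunits include pairs of isoforms used by different tissues. Against batch 2 the interquartile range of its log2 fold changes, -0.51 to 0.28, was the widest of the 5 complexes, with 11 of 16 genes below 0. Cox8a, the general isoform of subunit 8, had 182, 296, 253 and 178 CPM in the batch 1 controls, 271, 272, 273, 195 and 254 CPM in the WD group and 418, 318, 521, 419 and 528 CPM in the batch 2 controls. The batch 2 controls lay above all libraries of batch 1. Against batch 2 the log2 fold change was -0.80 (SE 0.19, adjusted p = 0.0144 by edgeR), called in 16 of 17 alternatives.

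Cox8b, the isoform known from muscle and brown fat, had 4.57, 2.04, 3.75 and 14.4 CPM in the batch 1 controls, 24.8, 52.4, 18.4, 31.6 and 36.8 CPM in the WD group and 11.8, 9.29, 21.2, 11.5 and 20.8 CPM in the batch 2 controls. All WD libraries lay above all batch 1 controls, and WD replicate 3 lay below 2 of the batch 2 controls. The mean was 5.30 times that of the batch 1 controls (log2 2.43, SE 0.73, unadjusted p = 0.00554, adjusted p = 0.530) and 2.20 times that of the batch 2 controls (log2 1.14, SE 0.36, adjusted p = 0.0806). Neither passed the test. Without control replicate 4, the control with the highest value, the log2 fold change in batch 1 was 3.22 with an adjusted p of 0.0479, and without control replicate 1 it was 2.32 with an adjusted p of 0.629. Against batch 2 the gene was called by DESeq2 (adjusted p = 0.0356) and by edgeR where every library had to reach 1 CPM (adjusted p = 0.0457). Of the summed CPM of Cox8a and Cox8b, Cox8b made up 0.683% to 7.50% for batch 1 controls, 6.31% to 16.2% for WD and 2.68% to 3.90% for batch 2 controls. The brown or beige adipocyte markers given above overlapped between the groups, and their part in the level of Cox8b was not tested.

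**Figure D4:**
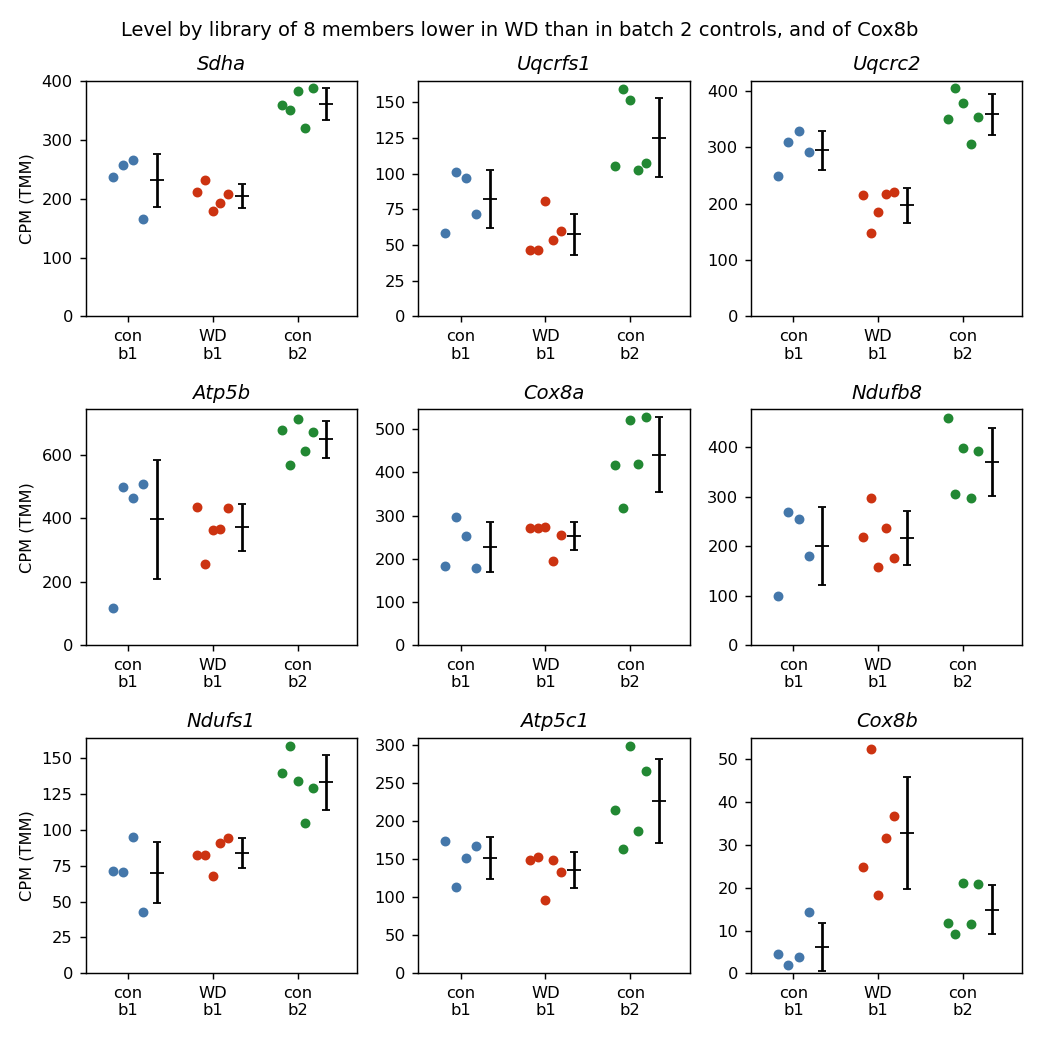
CPM per library of 8 members called lower in the WD group than in batch 2 controls, and of Cox8b. Points are libraries and bars the mean and SD (con b1, 4 batch 1 controls; WD b1, 5 WD libraries; con b2, 5 batch 2 controls). For all 8 genes the batch 2 controls have the highest mean, and Cox8b has its highest mean in the WD group.

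Cox6a2, the muscle isoform of subunit 6a, was the only subunit gene called higher in the WD group than in batch 2 (log2 6.28, SE 1.46, adjusted p = 0.0143 by edgeR). Its level was low, 1.13, 2.88, 11.6, 7.81 and 15.9 CPM in the WD group, 0, 0, 0 and 3.32 CPM in the batch 1 controls and 0.429, 0, 0, 0 and 0 CPM in the batch 2 controls. WD libraries 3, 4 and 5 carried most of it, the call was lost without WD replicate 5 (adjusted p = 0.0544), and with 6 counts in all in the batch 2 controls the size of the fold change depends on the prior count of the fit. The gene lies at chr7:128205435-128206366 on the minus strand, and its 3′ end overlaps by 69 bases the span of Itgad (chr7:128173946-128205503, plus strand), an integrin gene of macrophages. The counts of the 2 genes differed most in WD replicates 2 and 5 and were close in the other libraries. Cox6a2 had 44 counts in control replicate 4, 16, 27, 158, 97 and 190 in WD replicates 1 to 5, and 6 in control replicate 5. Itgad had 44 in control replicate 4, 13, 6, 159, 114 and 116 in the WD replicates, and 6, 3 and 6 in control replicates 5, 6 and 8. Both genes were at 0 in control replicates 1, 2, 3, 7 and 9. The sources do not say whether strand was used in counting, so reads of the shared bases cannot be assigned to either gene, and the Cox6a2 values are uncertain for that reason. The general isoform Cox6a1 had 323 to 453 CPM in the WD group and 513 to 600.4 CPM in the batch 2 controls, without overlap (log2 -0.47, SE 0.16, adjusted p = 0.115), and DESeq2 called it.

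**Figure D5:**
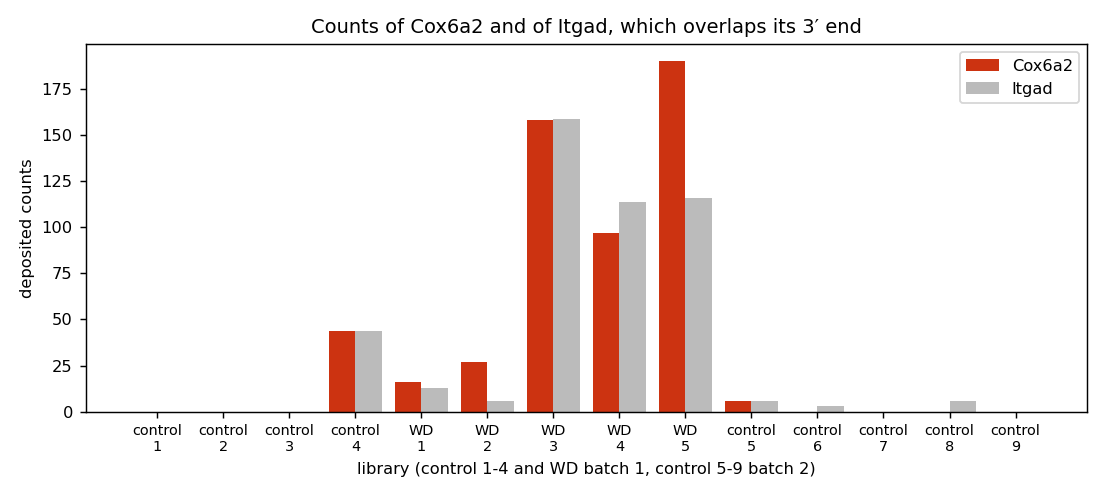
Deposited counts of Cox6a2 and of Itgad, the gene on the other strand whose span overlaps its 3′ end, in the 14 libraries. Bars start at 0. The counts of both are highest in WD replicates 3, 4 and 5, and at or below 6 in every control but replicate 4.

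The other isoform pairs differed widely in level. Cox4i1, the general form of subunit 4, had 154 to 389.8, 175 to 565 and 299 to 447 CPM in the batch 1 controls, the WD group and the batch 2 controls, and its lung isoform Cox4i2 0 to 1.42, 0 to 8.84 and 0 to 1.75 CPM. Cox7a2 had 316 to 486, 304 to 650.2 and 421 to 642 CPM, and the muscle and brown fat form Cox7a1 0 to 13.3, 3.34 to 19.4 and 2.76 to 10.8 CPM. Cox6b1 had 182 to 254, 166 to 268 and 258 to 403 CPM, and the testis form Cox6b2 0 to 19.3, 0 to 3.19 and 2.42 to 8.20 CPM. Cox7b, whose testis form is Cox7b2, had 127 to 244, 65.5 to 227 and 186 to 263 CPM. None of Cox4i2, Cox7a1 and Cox6b2 exceeded 20 CPM in any library. Sperm or testis markers summed to 2179 CPM in control replicate 1, 110.1 CPM in control replicate 3 and at most 4.26 CPM in the other libraries, beside 19.3 and 4.50 CPM of Cox6b2. Cox6b2 and the markers did not move together throughout, since control replicate 2, with the most Cox8c counts, had 9.93 CPM of Cox6b2 and 2.29 CPM of the markers, and the batch 2 controls had at most 0.101 CPM of the markers. Their part in the level of Cox6b2 and Cox8c was not tested. Ndufa4 had 5.96 to 85.1 CPM in the WD group with its lowest value in WD replicate 2, and Ndufa4l2, a paralog known to respond to hypoxia, had 8.30, 6.82, 1.68, 1.69 and 5.94 CPM there, 0, 0, 1.66 and 0 CPM in the batch 1 controls and 1.64 to 4.03 CPM in the batch 2 controls. The fitted log2 fold change of Ndufa4l2 in batch 1 was 3.51 (95% interval -0.51 to 7.53), resting on 20 counts in 1 control.

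Among the other complex IV genes, Cox5b, which binds zinc on the matrix side, had 65.6, 118, 118 and 108 CPM in the batch 1 controls, 182, 150.4, 122, 144 and 156 CPM in the WD group and 253, 228, 276, 153 and 252 CPM in the batch 2 controls. The WD group lay above the batch 1 controls without overlap and shared its range with the lowest batch 2 control. None of the 3 edgeR comparisons passed, with adjusted p = 1 in batch 1, 0.0727 against batch 2 and 0.445 between the control groups, and DESeq2 called the last 2 (between the control groups, log2 1.08, adjusted p = 0.0171). edgeR called the gene against batch 2 without control replicate 8. Cox7c had 172, 130.2, 155 and 406 CPM in the batch 1 controls and 128, 41.7, 132, 119.8 and 129.5 CPM in the WD group, where control replicate 4 and WD replicate 2 stood apart (log2 -0.95, SE 0.41, unadjusted p = 0.0382, adjusted p = 0.914), and the log2 value was -1.03 without control replicate 1. Cox6c, the most abundant member of all, had 1409 CPM in control replicate 1 and 377 to 596 CPM in the other batch 1 controls, 329 to 648 CPM with WD and 457 to 721 CPM among batch 2 controls. Cox7a2l, the supercomplex factor, had 415, 46.4, 152 and 77.7 CPM in the batch 1 controls, 114 to 216 CPM in the WD group and 117 to 145 CPM in the batch 2 controls, the highest value again in control replicate 1.

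Complex V, the ATP synthase, had 16 of 17 genes lower in the WD group than in batch 2 by sign, and 2 were called. Atp5b, the catalytic beta subunit, had 117, 497, 465 and 507 CPM in the batch 1 controls, 435, 256, 364, 365 and 433 CPM in the WD group and 677, 567, 713, 611 and 673 CPM in the batch 2 controls. Control replicate 1 stood far below the other batch 1 controls, and the batch 2 controls lay above all libraries of batch 1. The mean of the WD group was 0.572 of that of batch 2 (log2 -0.81, SE 0.18, adjusted p = 0.0109 by edgeR), called in 17 of 17 alternatives. Within batch 1 the log2 fold change was -0.080 with control replicate 1 and -0.38 without it, with adjusted p = 1 and 0.970.

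Atp5c1, the rotating gamma subunit, had 149, 152, 95.7, 149 and 133 CPM in the WD group and 215, 164, 299, 187 and 266 CPM in the batch 2 controls, without overlap (log2 -0.74, SE 0.21, adjusted p = 0.0455), and it was called in 8 of 17 alternatives. Atp5a1, the alpha subunit that alternates with beta in the catalytic ring, had 281 to 380.1 and 422 to 502 CPM, also without overlap (log2 -0.46, SE 0.16, adjusted p = 0.109), and it was called by DESeq2 and, without WD replicate 2, by edgeR. Atp5o, the stalk subunit that confers oligomycin sensitivity, had 243, 207, 263 and 203 CPM in the batch 1 controls, 237, 399.8, 191, 297 and 291 CPM in the WD group and 401, 399, 445, 334 and 488 CPM in the batch 2 controls. The control groups did not overlap (log2 0.84, SE 0.22, adjusted p = 0.445 by edgeR and 0.0443 by DESeq2).

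The 3 genes Atp5g1, Atp5g2 and Atp5g3 encode the same mature c subunit of the proton-driven ring. Atp5g3 was the main source, with 213, 319.7, 611 and 511 CPM in the batch 1 controls, 452, 164, 505, 571 and 589 CPM in the WD group and 725, 758, 789.8, 622 and 582 CPM in the batch 2 controls. Its lowest values in batch 1 came from WD replicate 2 and control replicate 1. Atp5g2 had 12.2 to 93.6, 28.6 to 71.2 and 53.98 to 72.5 CPM. Atp5g1 had 8.45 to 105, 19.6 to 56.2 and 18.5 to 35.8 CPM, and of the sum of Atp5g1 and Atp5g3 it made up 32.9% in control replicate 1 and 25.5% in WD replicate 2, the 2 libraries in which Atp5g3 was low, against 2.89% to 4.82% in the batch 2 controls. Since reads with multiple alignments were counted, reads shared by these genes or by their processed copies may have been counted at more than 1 of them. The complex V gene with the lowest p between diets in batch 1, Atp5sl, had 9.84 to 30.04 CPM in the controls and 4.79 to 12.6 CPM in the WD group (-1.12, SE 0.77, unadjusted p = 0.171 by edgeR).

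Other genes of mitochondrial respiration were read from the same fits, in which 2.48% of all genes were called lower in the WD group than in batch 2. Of 13 TCA cycle enzymes, which feed NADH and succinate to the chain, 3 were called lower in the WD group than in batch 2, among them Dlst (log2 -1.01, SE 0.21, adjusted p = 0.00732) and Idh3b (log2 -0.91, SE 0.21, adjusted p = 0.0117), 0 were called higher, and the median was -0.61. Of 46 assembly factors, 1 was called lower, Tmem70 of the ATP synthase (log2 -0.99, SE 0.28, adjusted p = 0.0461), 0 were called higher, and the median was -0.44. Of 77 genes of the mitochondrial ribosome, which makes the mitochondrially encoded subunits, 2 were called lower (Mrpl2, log2 -0.74, and Mrpl37, log2 -1.02) and 0 higher, with a median of -0.20. The shares called among the assembly factors and the mitochondrial ribosome were near that of all genes. Neither the 4 electron carrier genes nor the 11 biogenesis regulators held a call, with medians of -0.33 and -0.37. The cytosolic ribosome had 0 calls among 99 genes and a median of 0.32. Within batch 1, 0 genes of these lists were called, and the medians were 0.087 for the TCA cycle, 0.17 for assembly, 0.23 for the mitochondrial ribosome and -0.15 for the cytosolic ribosome. Between batch 2 and batch 1 controls 0 were called as well, with medians of 0.77 for the TCA cycle, 0.27 for assembly and 0.48 for the mitochondrial ribosome, and -0.45 for the cytosolic ribosome.

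Markers of cell types moved with the groups beside these genes. Of the 10 adipocyte markers, 7 were called lower and 1, the leptin gene Lep, higher in the WD group than in batch 2, with a median log2 fold change of -1.03, and the median between batch 2 and batch 1 controls was 1.03, with 10 of 10 above 0 and 0 called. Of the 10 macrophage markers, 9 were called higher in the WD group than in batch 2 and 0 lower, with a median of 2.01. Among all genes of that comparison, 2.48% were called lower and 3.93% higher. Within batch 1 the medians were -0.082 for adipocyte and 1.498 for macrophage markers, with 0 called in either. That fit includes control replicate 1, whose adipocyte markers summed to 6656 CPM. Control replicates 2, 3 and 4 summed to 55451, 54479 and 40880 CPM, each above all WD libraries (27987 to 40856 CPM). The part of these markers in the levels of the subunit genes was not tested.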

How the data were processed

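Per the labels and the study's methods, 3′ libraries were made from total RNA with the QuantSeq kit and aligned with Bowtie2, and the counts deposited by the authors are reads per gene from bedtools. Reads with multiple alignments were counted. The submitters' processing notes also name mm10, edgeR and FastQC, and versions and the strand setting are not given in the sources used here. The same table holds 14 columns of per-sample normalized log2 values, which were not used.

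Counts were read for 14 libraries and 23282 genes with total counts of 10278970 to 13712254, so that 3 counts are worth 0.219 to 0.292 CPM. The main test was edgeR's quasi-likelihood test (edgeR 4.0.16, R 4.3.3) with TMM factors and edgeR's filter on low counts, fitted on the whole table with Benjamini-Hochberg adjustment over all genes tested and a threshold of 0.05. The samples of each comparison entered their own fit. DESeq2 1.42.0, limma-voom (limma 3.58.1), other scaling factors, other filters, leaving out libraries and a replicate block were alternatives. The steps were tested on simulated data. The 95% intervals of log2 fold changes are normal approximations, with an SE derived from the fold change and the F statistic of the test. They do not use the test's degrees of freedom, so they can be narrower than its p-values imply. The labels number the samples and do not name animals, and the p-values measure the spread between these samples.

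Members and gene lists were chosen with earlier results of these data known. Genes were named by rule: per complex the 2 most abundant members, the 2 with the lowest p between diets in batch 1 and the 2 with the lowest p against batch 2, the isoform families and the catalytic subunits. Members called or not overlapping, and list genes named with a call, were added after their values were seen. Some named results are not reported here. By annotation (GENCODE M21), 5 members share exon bases with a gene on the same strand and 25 with a gene on the other strand, and for these, as for genes with near-identical copies, reads may be split or shared.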

Additional observations from a re-analysis of the deposited data

Results flagged for a closer look

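Dixon's test was run on 123 sets of 4 or 5 library values. They came from 35 named genes, and from the shares of counts of all members and of each complex, in the 3 groups. At the 95% level 14 sets, all of single genes, held a value that stood apart from the rest of its group. The 5% error rate of that level is for independent normal values and is no yardstick for these sets, which share libraries. A set with 1 value above 0 and the rest at 0 is flagged whatever that value is, as for Ndufa4l2, Cox4i2 and Cox6a2.

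WD replicate 2 gave 5 of them. Its CPM was 927 for Ndufa2 (362 to 498 in the other WD libraries), 362 for Ndufa13 (139 to 190.3), 682 for Uqcrh (269 to 378), 19.4 for Cox7a1 (3.34 to 7.84) and 41.7 for Cox7c (119.8 to 132). The first 4 values were high and that of Cox7c was low. WD replicate 4 had 195 CPM of Cox8a, against 254 to 273.

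In the batch 1 controls, control replicate 1 had 657 CPM of Uqcrh (264 to 323 in the others) and 117 CPM of Atp5b (465 to 507). Control replicate 4 had 406 CPM of Cox7c (130.2 to 172) and 3.32 CPM of Cox6a2, and control replicate 3 had 1.66 CPM of Ndufa4l2 and 1.42 CPM of Cox4i2, each of the last 3 against 0 in the other batch 1 controls. In the batch 2 controls, control replicate 9 had 54.3 CPM of Sdhc (104 to 122 in the others), and control replicate 5 had 0.429 CPM of Cox6a2, which was 6 counts, against 0.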

How the results depend on the processing

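Of 1101 alternative values, 1029 kept their direction and side of the threshold or moved little, and 0 changed sign after a call. Of 570 alternatives for single genes, 28 lost a call and 6 gained one. Within batch 1, leaving out 1 library gave 0 to 1 called genes and a median of -0.0606 to 0.152. The 1 call, without control replicate 4 and again with control replicates 1 and 4 both left out (1 gene), was Cox8b. Those fits called 48 and 108 genes in all. Against batch 2, leaving out 1 library gave 5 to 20 calls, with 565 to 977 genes called in all, and a median of -0.48 to -0.37. Fewest calls came without control replicate 7, and 6 came without control replicate 9 or WD replicate 3. Against all 9 controls the calls were 1 where all libraries had to reach 1 CPM (128 genes in all) and 2 by DESeq2 (236 in all). There were 2 by limma-voom (223), 6 without control replicates 1 and 4 (619), and 0 to 2 with 1 library left out (28 to 289). The median there was 0.0633 with batch as a term. Between the control groups, DESeq2 called 2 genes, leaving out 1 library gave 0 to 0 calls, and the median was 0.43 to 0.52. The causes were not tested.

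With a replicate block in batch 1, 0 genes were called and the median was 0.11, against 0.29 for all genes. Controls and WD libraries with the same number had correlations of -0.015, 0.044, 0.055 and 0.078 of their deviations, not every control correlated best with its own number, and the samples were not treated as paired. Genes with few counts, such as Cox6a2, Ndufa4l2 and Cox4i2, are limited by depth.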
